A study of Mus musculus with 6 samples.

Results

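Gap43, Nrn1 and Ctxn1 are 3 of the 5538 genes with a value in this series. They were picked by symbol, with their levels in these libraries already known, and each has 1 row. GAP-43, the product of Gap43, is a phosphoprotein on the inner face of the membrane of growth cones and presynaptic terminals, where it binds calmodulin and is a substrate of protein kinase C. Neuritin, the product of Nrn1 (also called Cpg15), is a small protein held on the cell surface by a lipid anchor. Its transcript is known to respond to neuronal activity and neurotrophins, and the protein promotes the growth of neurites and the maturation of synapses. Cortexin 1, the product of Ctxn1, is a small neuronal membrane protein with a single membrane-spanning segment, first described in cortex, and its function is less well defined. In the adult brain Gap43 stays active in neurons whose axons and synapses remain plastic, among them monoamine neurons of the brainstem.

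The RNA came from the perioculomotor (pIII) region of the midbrain of C57BL/6 mice that carried CreER, a drug-dependent recombinase, under the Fos promoter and a Cre-inducible eGFP-L10a reporter, a ribosomal protein fused to green fluorescent protein. Mice were kept awake for 6 hr and then slept for 3 hr, and 4-OHT, the drug that activates CreER, was injected just before one of these phases. The series describes the profiled neurons as those tagged in recovery sleep (RS-eGFP), while the labels of single libraries give only IP or Input and a number. IP is RNA pulled down with eGFP antibodies, and Input is read here as the same kind of tissue before that step. All 6 libraries, 3 of each, share genotype, strain and region in the labels, so Input is no untagged control. The tag marks cells in which the Fos promoter was active while the drug was present, whatever their type. Each repeat pooled tissue of 4 to 5 mice, so a replicate is a pool. Age is not stated in the labels.

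The values are TPM, relative transcript abundances within a library, which correct for transcript length and keep no read depth, so the depth behind each value is unknown. The median gene stood between 27.7 and 56.5 TPM in the IP libraries, at 64.3 and 67.2 in Inputs 1 and 2 and at 31.1 in Input 3. Input 3 stood apart: across genes on the log2 scale it correlated with Inputs 1 and 2 at 0.722 and 0.736, while those correlated with each other at 0.973. IP 1 stood somewhat apart too, at 0.831 and 0.882 with its fellow IP libraries, against 0.962 between IP 2 and IP 3. The differences of the 3 genes and of the genes and lists set beside them are therefore given with and without Input 3, and levels are set against the median gene of the same library. Markers of the region were present, with Chat, the enzyme of acetylcholine synthesis, at 34.7 TPM or more and Cartpt, a peptide gene of the Edinger-Westphal nucleus, at 415 or more in each library.

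On mm10 with the GENCODE M21 annotation, Gap43 (ENSMUSG00000047261) lies on the minus strand of chromosome 16, from 42248442 to 42340651. Its principal transcript has 3 exons and 1420 bases, spread over 92210 bases of genome. Nrn1 (ENSMUSG00000039114) lies on the minus strand of chromosome 13, from 36725361 to 36735131, with a principal transcript of 3 exons and 1619 bases. Its last exon shares 656 bases with Fars2, a mitochondrial tRNA synthetase gene on the opposite strand. The sources used here do not say whether strand was used in counting, and without it reads of that stretch cannot be told apart. Fars2 had 8.40, 16.7 and 15.3 TPM in IP 1, 2 and 3 and 25.6, 27.2 and 11.4 in Inputs 1, 2 and 3, below Nrn1 in each library. Ctxn1 (ENSMUSG00000048644) is the most compact, on the minus strand of chromosome 8 from 4257660 to 4259274, with 2 exons and 1212 bases of transcript. No other annotated gene overlaps it.

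Of the 3 genes, 1 had an entry in the RefSeq promoter table (GRCm38.p6), Ctxn1. The 250 bases before its start (chr8:4259275-4259524, minus strand, upstream of the first exon) are shown for that reason, and their part in the levels of Ctxn1 was not tested. Capitals mark GC boxes, the letters GGGCGG on either strand, a motif common near starts without a TATA box.
Ctxn1: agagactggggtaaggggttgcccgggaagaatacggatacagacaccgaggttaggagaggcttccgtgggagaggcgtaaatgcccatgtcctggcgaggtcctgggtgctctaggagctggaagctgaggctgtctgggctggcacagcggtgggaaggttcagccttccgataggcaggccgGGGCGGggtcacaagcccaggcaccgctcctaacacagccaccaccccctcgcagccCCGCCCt
The window holds 1 GC box on the strand printed here, starting 64 bases before the transcript start, and 1 on the opposite strand, whose first printed base lies 7 bases before it. A GC box on either strand occurs in 32.7% of the 32851 windows of this length in the table. The window is 64.4% G or C, more than in 81.6% of these windows, and holds 13 CpG, where the median window has 52.4% and 6. None of 3 other motifs searched on both strands is spelled out in it: TATAAA (in 12.4% of windows), the cAMP response element TGACGTCA (1.55%) and the E-box CAGCTG (13.0%). These are matches of letters and do not show binding.

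Gap43 was by far the most abundant of the 3 genes in every library, per transcript length. It had 139, 258 and 385 TPM in IP 1, 2 and 3, and 1155, 1070 and 247 TPM in Inputs 1, 2 and 3. Inputs 1 and 2 were high and the other 4 libraries low, and the groups overlapped, since Input 3 lay below IP 2 and IP 3. The means were 261 ± 123 TPM across the IP libraries against 824 ± 502 in Input (mean ± SD, n = 3 each), or 3.16 times as much in Input. Against Inputs 1 and 2 alone, with a mean of 1113 TPM, Input held 4.27 times the IP level.

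Set against the median gene of its library, Gap43 kept its place in a narrower range. It stood at 5.03, 4.56 and 7.56 times the median gene's TPM in IP 1, 2 and 3, and at 18.0, 15.9 and 7.96 times in Inputs 1, 2 and 3. On this scale the groups no longer overlapped, with Input 3 just above IP 3. By rank, 86.8%, 90.8% and 94.4% of the other genes had a lower TPM in IP 1, 2 and 3, against 98.3%, 98.2% and 95.3% in Inputs 1, 2 and 3. Gap43 thus remained in the upper part of the table in IP too. On the scale of log2(TPM + 1) minus the library's median, the level was 2.45 ± 0.39 in IP, against 3.69 ± 0.64 in Input (± SD, n = 3 each). The difference, IP minus Input, was -1.24 (SE 0.43), and -1.61 (SE 0.24) without Input 3.

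**Figure D1:**
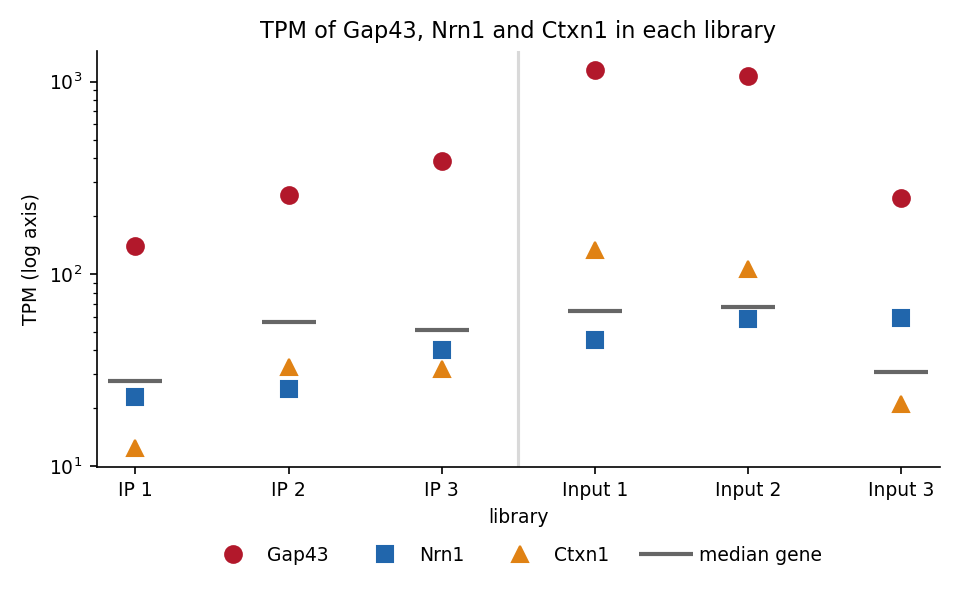
TPM on a log axis (vertical) of Gap43 (red circles), Nrn1 (blue squares) and Ctxn1 (orange triangles) in each of the 6 libraries (horizontal), with a grey bar for the median gene of the library. Gap43 and Ctxn1 are highest in Inputs 1 and 2 and low in the other 4 libraries, whereas Nrn1 is highest in Inputs 2 and 3, at 58.2 and 59.0 TPM.

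Ctxn1, which encodes cortexin 1, was present at far below the Gap43 level. It had 12.5, 32.9 and 32.1 TPM in IP 1, 2 and 3, and 133, 107 and 20.9 TPM in Inputs 1, 2 and 3. As for Gap43, Inputs 1 and 2 were high, and Input 3 fell among the IP libraries, below IP 2 and IP 3. The means were 25.8 ± 11.6 TPM across the IP libraries against 86.9 ± 58.7 in Input (mean ± SD, n = 3 each), or 3.37 times as much in Input and 4.65 times in Inputs 1 and 2.

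Relative to the median gene, Ctxn1 changed sides. It stood at 0.45, 0.58 and 0.63 times the median gene's TPM in IP 1, 2 and 3, at 2.07 and 1.59 times in Inputs 1 and 2, and at 0.67 times in Input 3. All IP libraries lay below all Input libraries, Input 3 by a small margin. By rank, 19.3% to 29.9% of the other genes were lower in the IP libraries, against 73.1% and 66.6% in Inputs 1 and 2 and 33.7% in Input 3. The relative log2 level was -0.83 ± 0.23 in IP, against 0.38 ± 0.83 in Input (± SD, n = 3 each). The difference was -1.22 (SE 0.50), and -1.68 (SE 0.23) without Input 3.

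Nrn1, which encodes neuritin, had another distribution. It had 23.0, 25.3 and 40.1 TPM in IP 1, 2 and 3, and 45.6, 58.2 and 59.0 TPM in Inputs 1, 2 and 3. In TPM every IP library was below every Input library, and Input 3 was the highest of all. The means were 29.5 ± 9.31 TPM across the IP libraries against 54.2 ± 7.53 in Input (mean ± SD, n = 3 each), or 1.84 times as much in Input and 1.76 times in Inputs 1 and 2.

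That separation was not kept relative to the median gene. Nrn1 stood at 0.83, 0.45 and 0.79 times the median gene's TPM in IP 1, 2 and 3, at 0.71 and 0.87 times in Inputs 1 and 2, and at 1.90 times in Input 3. IP 1 and IP 3 lay between Inputs 1 and 2, IP 2 below both, and Input 3 well above the rest. By rank, 43.1%, 16.5% and 39.0% of the other genes were lower in IP 1, 2 and 3, and 35.8%, 44.1% and 72.2% in Inputs 1, 2 and 3. The relative log2 level was -0.57 ± 0.48 in IP, against 0.07 ± 0.74 in Input (± SD, n = 3 each). The difference of -0.65 (SE 0.51) became -0.23 (SE 0.31) without Input 3, the library that carried most of it.

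**Figure D2:**
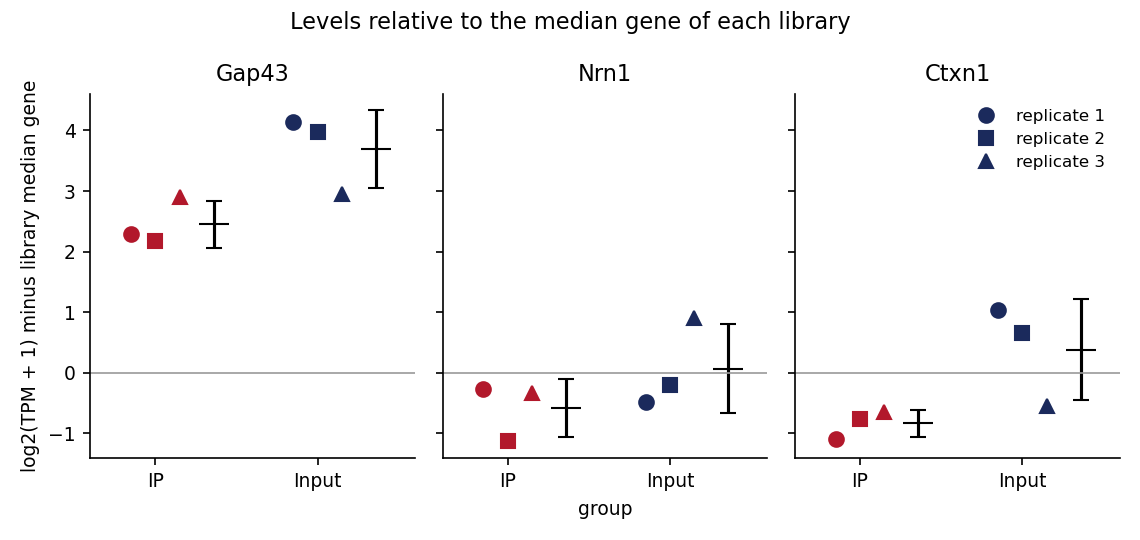
Levels of the 3 genes as log2(TPM + 1) minus the median gene of the same library (vertical), by group (horizontal), IP points being red and Input points navy; circles, squares and triangles stand for replicates 1, 2 and 3 and a black bar for the mean ± SD of 3 libraries. For Gap43 and Ctxn1 all IP points lie below all Input points, with Input 3 nearest to them; for Nrn1 the groups overlap and Input 3 is the highest point.

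These levels chose the genes, so they are a description and no test is given for them. As background, limma called 0 of the 5538 genes higher and 0 lower in IP across the 6 libraries (0%), with 53 each way at an unadjusted p of 0.05. Of the 3 genes 1, Nrn1, had all IP below all Input libraries in TPM, as did 6.21% of all genes. Relative to the median gene, 2 of 3, Gap43 and Ctxn1, had all IP below all Input libraries, as did 9.71% of all genes. Against Inputs 1 and 2 alone the IP libraries were lower in TPM for all 3 genes and for 53.1% of the table, and relative to the median gene for 2 of the 3 and for 20.2%. Counted from the most lowered gene by relative log2 difference, Gap43 was 19th, Ctxn1 20th and Nrn1 361st of 5538. Without Input 3, 0.379%, 0.253% and 30.4% of genes had a lower difference than Gap43, Ctxn1 and Nrn1.

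The members also differ when libraries of the same number are set side by side. The ratio of IP to Input TPM for numbers 1, 2 and 3 was 0.12, 0.24 and 1.56 for Gap43, and 0.094, 0.31 and 1.53 for Ctxn1. For both genes 2 of the 3 ratios were far below 1 and the one with Input 3 above it. For Nrn1 the ratios were 0.50, 0.43 and 0.68, all below 1. Relative to the median gene this contrast was not kept. The log2 differences, IP minus Input, for numbers 1, 2 and 3 were then -1.86, -1.80 and -0.06 for Gap43. They were -2.13, -1.42 and -0.10 for Ctxn1, and 0.23, -0.93 and -1.24 for Nrn1. The numbers did not show that libraries belong together, as given with the processing.

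A ratio between genes within a library does not depend on how the library is scaled. The ratio of Gap43 to Ctxn1 TPM was 11.2, 7.84 and 12.02 in IP 1, 2 and 3 and 8.67, 10.0 and 11.8 in Inputs 1, 2 and 3. It varied 1.53-fold over the 6 libraries, while Gap43 itself varied 8.30-fold and Ctxn1 10.7-fold, and the IP values spanned the Input values. The ratio of Gap43 to Nrn1 was 6.06, 10.2 and 9.61 in IP, against 25.4 and 18.4 in Inputs 1 and 2 but 4.19 in Input 3, a 6.05-fold range. Input 3 gave the lowest value of that ratio and the other Input libraries the highest ones. The ratio of Nrn1 to Ctxn1 ranged from 0.34 in Input 1 to 2.82 in Input 3, or 8.24-fold, although Nrn1 itself varied only 2.57-fold.

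Likeness of profile was measured as the root mean square difference over the 6 libraries between 2 genes' relative log2 levels, each centred on its own mean. The libraries share 2 groups and differ in scale and composition, so a small difference describes these libraries only. It was 0.22 between Gap43 and Ctxn1, and 0.11% of candidate genes were nearer to Gap43 than that. The members were picked with these levels known and the candidates were not, so that share is a description and no test of likeness. Between Gap43 and Nrn1 it was 0.88, with 58.3% of candidates nearer, and between Nrn1 and Ctxn1 1.01. The median candidate stood at 0.84 from Gap43, 0.69 from Nrn1 and 0.86 from Ctxn1, so Nrn1 was no nearer to the other two than the typical gene was.

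The gene nearest to Gap43 was Stmn1 (0.12), which encodes stathmin, a protein that binds free tubulin and destabilises microtubules. Stmn1 had 220, 529 and 668 TPM in IP 1, 2 and 3 and 2019, 1950 and 471 in Inputs 1, 2 and 3, and the ratio of Gap43 to Stmn1 stayed between 0.49 and 0.63. Next came Gpx3, a secreted glutathione peroxidase (0.15), S100a16, a calcium-binding protein (0.19), Bex4 (0.19) and Slc35g2, of a solute carrier family (0.21). Each of these 5 was highest in Inputs 1 and 2 and had Input 3 within or below the range of the IP libraries in TPM. That too follows from their choice by likeness to Gap43. The genes nearest to Ctxn1 were Nsg2, a neuronal endosomal protein (0.17), Mmd2 (0.19), Stmn1 (0.19), Gpx3 (0.20) and Ndrg2, an abundant astrocyte gene (0.22). Stmn1 and Gpx3 thus stood among the 5 nearest of both genes.

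Nrn1 had other neighbours. They were Polr3k, a subunit of RNA polymerase III (0.13), Hikeshi, which carries Hsp70 into the nucleus (0.13), Lrrc28 (0.13), Srp9, of the signal recognition particle (0.18), and Tank, an adaptor of immune signalling (0.19). Polr3k had 19.1, 18.2 and 24.6 TPM in IP 1, 2 and 3 and 34.3, 42.9 and 43.7 in Inputs 1, 2 and 3. In TPM these 5 genes had every IP library below every Input library, as did 6.21% of all genes. Input 3 was the highest library for 4 of them, Tank being the exception. They were chosen for likeness to Nrn1, which has both traits, so these counts follow from the choice.

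**Figure D3:**
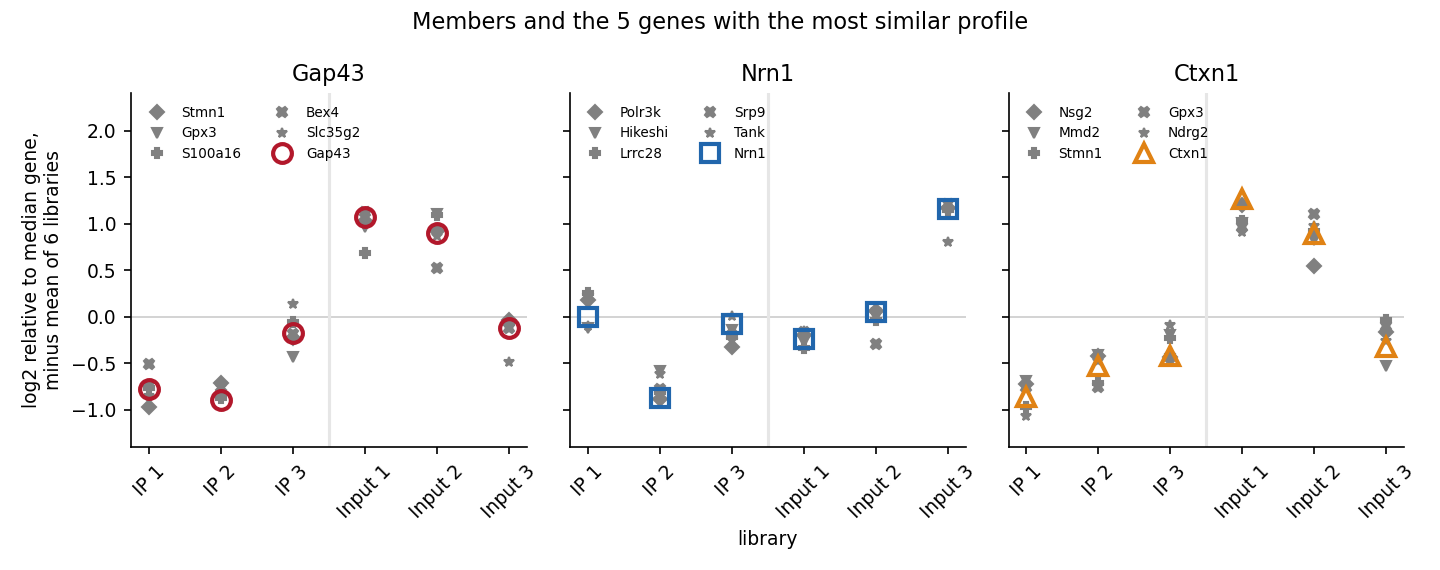
Profiles of Gap43, Nrn1 and Ctxn1 (open coloured symbols) and of the 5 genes most like each (grey) over the 6 libraries (horizontal), as log2 level relative to the median gene minus the gene's own mean (vertical). Gap43 and Ctxn1 with their neighbours peak in Inputs 1 and 2, and Nrn1 with its neighbours peaks in Input 3.

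Other genes of neurite growth were taken from 6 lists, which hold 78 genes beside the members, and 48 of these had a value. With all 6 libraries limma called 0 of the 48 higher and 0 lower in IP (0% of the table each way). Relative to the median gene, 5 of the 48 (Gpm6a, Calm2, Stmn1, Stmn4 and Tmsb4x) had all IP below all Input libraries, or 10.4% against 9.71% of all genes. The share is near the background. Another 3 (Dpysl3, Jun and Gal) had all IP above all Input libraries, where 6.93% of all genes did. The median relative difference of the 48 was -0.05, and -0.30 without Input 3, with the median over all genes at 0.02 and -0.01. Of the 48, 4 had a lower difference than Gap43 and than Ctxn1 over all libraries, where 0.325% and 0.343% of all genes did. Without Input 3 it was 1 and 0 of the 48, against 0.379% and 0.253% of all genes. The members were picked with their levels known, so these counts are a description. In a fit of IP 2 and IP 3 against Inputs 1 and 2, with each library centred on its median gene, limma called 6 of the 48 lower (Marcksl1, Ctxn2, Stmn1, Stmn4, Tmsb10 and Tmsb4x; 2.89% of all genes) and 1 higher (Gal; 3.38% of all genes).

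Membrane proteins of growing neurites had 9 of 15 genes measured, with a median difference of -0.45 (-0.35 without Input 3). Marcksl1, like GAP-43 a membrane-bound calmodulin-binding substrate of protein kinase C, had 8.16, 35.8 and 48.6 TPM in IP 1, 2 and 3 and 106, 113 and 20.7 in Inputs 1, 2 and 3. It shared with Gap43 the high Inputs 1 and 2 and an Input 3 among the IP libraries, and its difference was -1.09 (SE 0.63), or -1.52 without Input 3 and -0.66 without IP 1. Gpm6a, a neuronal membrane glycoprotein that promotes filopodia and neurites, had 63.2 ± 45.2 TPM across the IP libraries against 148 ± 55.6 in Input (mean ± SD, n = 3 each), a difference of -1.36, or -1.37 without Input 3 and -0.70 without IP 1. Its relative Gpm6b had -0.45 (-1.07 without Input 3, 0.05 without IP 1) and Plppr3, a phospholipid phosphatase-related protein of axons, 0.01 (-0.29 without Input 3). Among the paralogs of the members only Ctxn2, cortexin 2, had a value. It had 43.8, 31.5 and 46.3 TPM across the IP libraries, against 132, 105 and 16.6 in Input, with Input 3 the lowest library, and its difference was -0.37 (SE 0.72), or -0.94 without Input 3. In 3 of 6 libraries, IP 2 and Inputs 1 and 2, Ctxn1 and Ctxn2 were near parity (ratios of 1.05, 1.01 and 1.01), while in IP 1 Ctxn1 had 0.28 of the Ctxn2 level.

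Proteins that bind or modify GAP-43 or its transcript had 10 of 13 genes measured and a median of -0.21 (-0.31 without Input 3). Calm2 and Calm3 encode calmodulin, which GAP-43 binds. Calm2 had 762, 1975 and 2060 TPM across the IP libraries, against 2658, 2745 and 2733 in Input, with no overlap and a difference of -0.65 (SE 0.40, and -0.29 without Input 3). Calm3 had a difference of -0.28 (-0.32 without Input 3). Prkcb, a protein kinase C, had 77.9 ± 53.0 TPM across the IP libraries against 107 ± 80.0 in Input (mean ± SD, n = 3 each), a difference of 0.00 that became -0.76 without Input 3.

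Microtubule and actin proteins of growing neurites had 19 of 22 genes measured, with a median of -0.28 (-0.47 without Input 3) and a wide range from -1.39 to 0.79. The stathmins, which act on free tubulin, split. Stmn1 and Stmn4 had differences of -1.28 (SE 0.40) and -1.39 (SE 0.33), near those of Gap43 and Ctxn1, and -1.62 and -1.49 without Input 3. Stmn4 had 19.5, 73.1 and 74.3 TPM across the IP libraries, against 193, 218 and 80.3 in Input, with no overlap. Stmn2 had -0.32 (SE 0.38, and -0.69 without Input 3) and Stmn3 0.27 (SE 0.30, and 0.05 without Input 3), the latter at 1351 ± 167 TPM across the IP libraries against 1514 ± 803 in Input (mean ± SD, n = 3 each). Tmsb10 and Tmsb4x, thymosins that hold free actin, and Dpysl3, a microtubule-binding phosphoprotein of growth cones, are named because they stood in the counts above. Tmsb10 and Tmsb4x had -1.08 and -0.85 (-0.86 and -0.88 without Input 3), and Dpysl3, at the other end of the list, had 32.4, 91.4 and 89.8 TPM across the IP libraries, against 60.2, 70.7 and 19.5 in Input, with 0.79 (0.58 without Input 3).

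**Figure D4:**
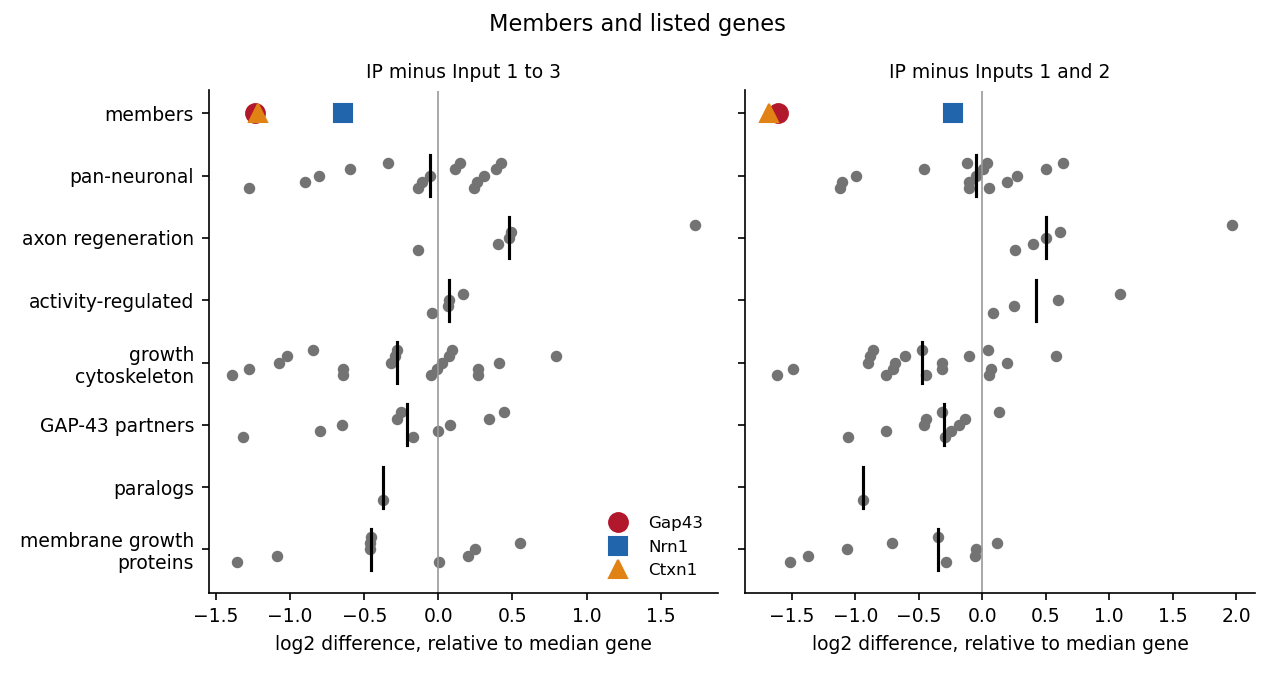
Difference IP minus Input in log2(TPM + 1) relative to the median gene (horizontal) for each measured gene of the neurite growth lists and the pan-neuronal list (grey points, black bars for list medians) and for the 3 members (coloured symbols), with all libraries (left) and without Input 3 (right). Gap43 and Ctxn1 lie at -1.24 and -1.22 on the left, near the lower end of the cytoskeleton list, and Nrn1 moves from -0.65 on the left to -0.23 on the right.

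Activity-regulated genes, the class Nrn1 belongs to, had 4 of 14 genes measured, with a median of 0.07 (0.42 without Input 3). Fos, whose promoter drives CreER in these mice, had 7.66, 19.1 and 16.0 TPM across the IP libraries, against 12.2, 14.7 and 25.0 in Input, and Junb 24.0, 24.3 and 20.4 in IP and 11.8, 21.5 and 67.1 in Input. Both had their highest value in Input 3, as Nrn1 did, and their differences were -0.04 and 0.07, or 0.59 and 1.09 without Input 3. Arc, a synaptic plasticity gene, and Vgf, a neurotrophin-inducible peptide precursor, had differences of 0.07 and 0.16 (0.09 and 0.25 without Input 3). Neither was highest in Input 3. Arc had 9.40 TPM there, against 17.5 and 22.8 in Inputs 1 and 2, and Vgf had 44.1, its lowest value. Genes known to be induced in injured, regrowing neurons had 5 of 11 measured beside Gap43, which stands in that list too, and their median was 0.48 (0.50 without Input 3). Gal, which encodes galanin, had 67.5, 65.0 and 73.1 TPM across the IP libraries, against 23.7, 28.4 and 20.1 in Input, a difference of 1.73 (SE 0.40, and 1.96 without Input 3) with no overlap, opposite in sign to Gap43. Jun, Klf7 and Gadd45a, further genes of that response, had 0.48, 0.41 and -0.13 (0.50, 0.40 and 0.25 without Input 3).

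The tissue holds many neuron types and glia. In bulk RNA fewer cells of a type and less RNA per cell cannot be told apart. The pan-neuronal list (15 of 15 measured) had a median difference of -0.06 (-0.05 without Input 3), summed to between 5207 and 12677 TPM in IP and between 8105 and 12441 in Input, and had, relative to the median gene, 2 genes with all IP below (9.71% of all genes) and 1 with all IP above all Input libraries (6.93%). Snap25 and Syt1, both of synaptic vesicle release, had -0.34 and -0.80 (-0.11 and -1.10 without Input 3). Set against the median of this list, after each of its genes was centred on its own mean, the differences of Gap43, Ctxn1 and Nrn1 were -1.25, -1.23 and -0.65. Set against the plain level of the list's middle gene, which is a different gene in different libraries, they were -0.60, -0.58 and -0.0031.

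Both lists of monoamine neurons were higher in Inputs 1 and 2 than in the IP libraries, as Gap43 and Ctxn1 were. Dopaminergic genes (5 of 8 measured) summed to 88.0, 532 and 475 TPM in IP 1, 2 and 3 and to 1588, 1284 and 148 in Inputs 1, 2 and 3. Serotonergic genes (4 of 6 measured) summed to 315, 1169 and 896 TPM in IP and to 3320, 2180 and 162 in Input. In TPM the dopaminergic sum in Input 3 lay above IP 1 and below IP 2 and IP 3, as Gap43 and Ctxn1 did. The serotonergic sum in Input 3 lay below every IP library. Relative to the median gene, all 5 and all 4 had the IP libraries below Inputs 1 and 2, against 20.2% of all genes, and their median differences were -1.04 and -0.48, or -1.69 and -1.50 without Input 3. This was not particular to monoamine genes. By the same count 4 of 6 astrocyte, 4 of 6 oligodendrocyte and 2 of 3 Edinger-Westphal genes had the IP libraries below Inputs 1 and 2. The count was 3 of 15 for pan-neuronal, 1 of 6 for cholinergic and 0 of 3 for GABAergic genes. On this scale Gap43 and Ctxn1 in Input 3 lay above every IP library, though close to IP 3 (IP 3 minus Input 3 of -0.06 and -0.10). The serotonergic median in Input 3 was -0.74, below the 1.21 to 1.39 of the IP libraries. The dopaminergic median in Input 3 was -0.12, below IP 2 and IP 3 (0.66 and 0.10) and above IP 1 (-1.23). Th and Slc18a2, for dopamine synthesis and vesicular storage, had -0.77 and -1.25 (-1.28 and -1.69 without Input 3). Without IP 1 these differences were -0.09 and -0.61. Tph2 and Slc6a4, for serotonin synthesis and reuptake, had -0.48 each, which became -1.34 and -1.53 without Input 3 and 0.11 and 0.22 without Input 1. Slc6a3, Nr4a2, Pitx3, Fev and Gata3 have no value here. The part of these cells in the values of Gap43 and Ctxn1 was not tested.

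Astrocyte genes had their highest sums in Inputs 1 and 2, and oligodendrocyte genes were high in IP 3 as well. Astrocyte genes (6 of 12 measured) summed to between 864 and 2209 TPM in IP, to 3673 and 4043 in Inputs 1 and 2 and to 827 in Input 3. Most of these sums was Aldoc, with 2895 and 3191 TPM in Inputs 1 and 2, whereas Gfap was highest in Input 3, at 67.3 TPM. The astrocyte median was -0.32 (-0.73 without Input 3), Gfap having -0.67 (0.10 without Input 3), Aldoc -0.28 (-0.71) and S100b 0.26 (0.25). Oligodendrocyte genes (6 of 12) summed to 365, 2920 and 4437 TPM across the IP libraries, against 4108, 4877 and 536 in Input, with a median of -0.34 (-1.08 without Input 3), Mbp having 0.23 (-0.47). The list's median level relative to the median gene was 3.18 in IP 3, against 2.70 and 3.06 in Inputs 1 and 2. Aqp4, Slc1a3 and Mog, which define these cells, have no value here, and the part of glia in the members' values was not tested. Peptide genes of the Edinger-Westphal nucleus (3 of 4) summed to between 1064 and 1369 TPM in IP, to 2911 and 3787 in Inputs 1 and 2 and to 549 in Input 3. Cartpt and Ucn had -0.34 and -0.13 (-0.85 and -0.64 without Input 3), and the list's median was -0.34 (-0.85 without Input 3).

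Cholinergic genes (6 of 8 measured) mostly went the other way, with sums of 473, 794 and 567 TPM across the IP libraries, against 466, 493 and 374 in Input and a median of 1.24 (1.54 without Input 3), Chat and Slc18a3, the vesicular acetylcholine transporter, having 1.20 and 1.28 (1.61 and 2.19 without Input 3). The exception was Slc10a4, with -0.19 (-0.62 without Input 3). Slc10a4 had 61.1, 151 and 129 TPM across the IP libraries, against 280, 221 and 48.2 in Input. The GABAergic list (3 of 6 measured) had a median of -0.40 (-0.41 without Input 3). In it Gad1 and Gad2, enzymes of GABA synthesis, had -0.67 and -0.40, or -0.41 and -0.76 without Input 3 and 0.09 and 0.20 without IP 1, while Pvalb, which encodes parvalbumin and is named after its value was seen, had 0.92 (1.70 without Input 3). Of the glutamatergic list only Slc17a6 had a value (-0.09, and -0.10 without Input 3). Endothelial genes (3 of 10; Ly6c1 1.92 and Ly6a 1.45, or 2.06 and 1.19 without Input 3) had a median of 1.45 and summed to 566 TPM in IP 2 and to at most 119 in every other library. Microglial genes (2 of 11; Ctss -0.49, or -0.09 without Input 3) summed to at most 85.5 TPM, Ptgds alone stood for the meningeal and mural list (-0.54, or -1.48 without Input 3), and precursor and ependymal lists had no measured gene.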

How the data were processed

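The authors deposited 1 table of TPM for 6 libraries, 3 IP and 3 Input, with the unit under each library name per the file headers. Every listed value is at or above 7.00 TPM. RSEM, DESeq and mm10 are named, without roles or versions, per the submitters' processing notes, with the aligner not given in the sources used here. Libraries were matched to groups by their titles, and all 6 value columns were used (0 left out).

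TPM were transformed to log2(TPM + 1), and the library's median was subtracted where a level is called relative. IP was compared with Input over all genes by limma 3.58.1 in R 4.3.3 (trend, Benjamini-Hochberg, threshold 0.05), a script checked on simulated data. With 3 libraries per group no exact permutation test can go below 0.1. The labels name pools of mice but not whether repeats were separate dissections, so errors measure the spread between these libraries. Same-numbered libraries did not all deviate together (correlations of -0.10, 0.25 and -0.17 for numbers 1, 2 and 3). That of number 2 was the highest of any IP and Input pair, and IP 1 with Input 3 had 0.19. As IP 1 and Input 3 stood apart, these values cannot tell whether same-numbered libraries share a pool. Whether they are paired is unknown, and no pairing was used in the main comparison.

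The members, the 20 gene lists (6 of neurite growth, 14 of cell markers) and the design were chosen with earlier results of these data known. Named genes are the first 4 measured of each growth list, the first 2 of each marker list and the 5 most alike in profile among 5273 candidates without predicted gene models or pseudogenes. Some results for genes of this rule are not reported here. Other genes named were chosen after their values were seen. The alternatives were another pseudocount (0.1), a filter (mean TPM of at least 20), other scalings, a replicate block and left-out libraries.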

Additional observations from a re-analysis of the deposited data

How the results depend on the processing

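The relative log2 differences of Gap43, Nrn1 and Ctxn1 were negative under all 13 alternatives that could change them, over ranges of -1.61 to -0.60, -0.92 to -0.0031 and -1.68 to -0.58. The value nearest 0 came from setting each library against the level of the middle gene of the pan-neuronal list (-0.60, -0.0031 and -0.58 in that order). With the list's genes each centred on their own mean, an alternative added after the data were seen, they were -1.25, -0.65 and -1.23. Leaving out each library in turn gave -1.61 to -1.01 for Gap43, -0.92 to -0.23 for Nrn1 and -1.68 to -0.89 for Ctxn1. For Nrn1, leaving out Input 3 (-0.23) or IP 2 (-0.37), or IP 1 and Input 3 together (-0.39), changed the value by more than 1.5 times. Without the subtraction of the median gene they were -1.48, -0.89 and -1.46.

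The labels number the libraries in both groups alike. A replicate block on the number cannot change mean differences in this balanced design, so the members' values under it (-1.24, -0.65 and -1.22) are no check and are not counted among the alternatives. With the block, in limma, 13 genes passed as higher in IP and 0 as lower. Without 1 library in turn it called 0 to 19 higher and 0 to 2 lower, the highest counts without Input 3. Without IP 1 and Input 3 it called 121 higher and 936 lower, or 187 and 160 with centred libraries, so the balance of directions turned with the scaling. With centring and without Input 3, also added later, it called 16 and 1. Among the other named genes and list medians, 701 of 793 alternative values, the block left out again, kept their direction. TPM keep no depth, so no counting error can be given.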
